A study of Mus musculus with 9 samples.

Results

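The genes described here are 9 genes that melanocytes use to make pigment or to become pigment cells (Tyr, Tyrp1, Dct, Pmel, Mlana, Slc45a2, Oca2, Mitf and Kit) and agouti (a), the secreted signal that switches the pigment type. They are 10 of the 43548 gene identifiers in the expression table, and they were selected by name after several had been seen at higher levels in these libraries, so their own differences between groups are given as a description, with counts of calls but no p. RNAseq was carried out on skull tissue of mouse embryos at E14.5, and 3 libraries each were made from MCAGF8 vault, control vault and control cranial base, with RNA of 3 tissue samples pooled per library. The p-values given for other genes therefore measure the spread between pools, and both control tissues were taken from control embryos, so that vault and base pools may share embryos, which the fit does not model.

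MCAGF8 embryos (Msx2Cre; CAGFgf8) carried an Fgf8 transgene in the ROSA26 locus, driven by the strong CAG promoter once Cre had removed a stop sequence, and Msx2-Cre is active in the surface ectoderm of the head and not in the mesenchyme that forms the vault. The CAGF8 line was bred as a homozygote, so the Cre-negative controls, which the labels call wildtype, would carry the same allele with its stop sequence still in place. The strain is labelled mixed, and the CAGF8 line came from 129S1/Sv W9.5 embryonic stem cells and was kept on outbred Black Swiss stock. The alleles of the embryos at agouti and at Tyr are not given. The skin had been peeled from the head before the vault was collected, the base was the cartilaginous floor of the control skull, and the mutant embryos lose their eyes.

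Melanocytes arise from neural crest cells that migrate under the surface ectoderm or along nerves and then settle in the epidermis, the hair follicles and internal sites such as the meninges. MITF, the transcription factor that defines the lineage, switches on the enzymes TYR, TYRP1 and DCT, which convert tyrosine to melanin inside a dedicated organelle, the melanosome. Agouti protein is made by dermal cells, not by melanocytes, and blocks the melanocortin receptor MC1R on the melanocyte surface, which moves synthesis from black eumelanin to yellow pheomelanin.

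The 3 enzyme genes share a DNA element in front of their RefSeq starts, the 9-base M-box TCATGTGCT, a well-known binding site of MITF. Their upstream sequences are shown for this element, as RefSeq gives the 250 bases before each gene start in the GRCm38.p6 build, read 5′ to 3′ on the strand of the gene with TCATGTGCT in capitals. The Tyr stretch lies at chr7:87493513-87493762 on the minus strand, that of Tyrp1 at chr4:80833963-80834212 on the plus strand and that of Dct at chr14:118052247-118052496 on the minus strand.
Tyr: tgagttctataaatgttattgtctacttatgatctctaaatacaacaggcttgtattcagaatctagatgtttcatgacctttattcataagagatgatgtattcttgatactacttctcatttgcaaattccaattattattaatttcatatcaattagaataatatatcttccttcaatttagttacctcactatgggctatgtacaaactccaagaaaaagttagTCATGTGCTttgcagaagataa
Tyrp1: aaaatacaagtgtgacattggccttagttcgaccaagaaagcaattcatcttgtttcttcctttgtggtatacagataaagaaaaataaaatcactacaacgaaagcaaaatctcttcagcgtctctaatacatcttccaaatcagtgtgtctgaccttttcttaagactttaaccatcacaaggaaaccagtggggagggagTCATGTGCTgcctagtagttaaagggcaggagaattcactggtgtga
Dct: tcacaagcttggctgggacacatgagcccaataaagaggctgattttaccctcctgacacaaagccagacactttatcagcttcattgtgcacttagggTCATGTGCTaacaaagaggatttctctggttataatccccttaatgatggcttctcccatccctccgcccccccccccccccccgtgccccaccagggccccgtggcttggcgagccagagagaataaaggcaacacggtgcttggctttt

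The first base of the element was 22 bases upstream of the RefSeq start in Tyr, 47 in Tyrp1 and 151 in Dct. In GENCODE M21, another annotation, the Tyrp1 gene begins at base 80834123, before the element, which there lies within the gene. Of the 10 genes, 7 had a promoter window of 300 bases (250 before and 50 after the start), while Pmel, Mlana and Slc45a2 had none. TCATGTGCT, searched on both strands (AGCACATGA on the other), was in 3 of the 7, and in 134 of all 32851 windows, or 0.408%. Its core CATGTG, which lies within the longer element and was also searched on both strands, was also in the window of Oca2, 186 bases upstream on the other strand, and was in 14.2% of all windows. The windows of Mitf, Kit and agouti held neither. A match says only that the letters are present, and binding was not measured.

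Tissue markers and Fgf8 were checked against the labels. Sp7, a transcription factor of osteoblasts, was at 16.0 to 20.6 FPKM (fragments per kilobase of transcript, scaled to the mapped total, the deposited unit) in the MCAGF8 vault and at 55.4 to 123 FPKM in the control vault. Fgf8 was at 9.43 to 19.5 FPKM in the MCAGF8 vault and at 3.01 to 13.5 FPKM in the control vault, which overlapped. Control base library 2 stood apart from the other base libraries, with Col2a1, the main collagen of cartilage, at 2292 FPKM against 163 and 268 FPKM, so the base is described with and without it. The number of reads behind these values is unknown, since FPKM from Cufflinks do not return it. FPKM summed to between 793249 and 1315981 per library.

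All 3 genes of the melanin enzymes were higher in every MCAGF8 vault library than in any control vault library, by 14.8 to 18.5 times in mean FPKM. Dct encodes dopachrome tautomerase and is among the earliest genes that mark melanoblasts, the precursors of melanocytes. Its level was 8.91, 7.25 and 9.56 FPKM in MCAGF8 vault libraries 1, 2 and 3, and 0.0568, 1.17 and 0.162 FPKM in those of the control vault. It was 0.184, 8.11 and 0.243 FPKM in the control base, so that base library 2 alone reached the MCAGF8 level and the other base libraries were near the control vault. The mean was 8.57 ± 1.19 FPKM in the MCAGF8 vault and 0.465 ± 0.617 FPKM in the control vault (SD, n = 3 each), a ratio of 18.5, and the ratio to the base was 3.01. In bulk tissue, fewer cells of a type and less RNA per cell cannot be told apart.

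Tyr encodes tyrosinase, which catalyses the first and rate-limiting step of melanin synthesis. Its level was 1.02, 0.768 and 1.28 FPKM in the MCAGF8 vault, 0.0188, 0.127 and 0.0615 FPKM in the control vault, and 0.0174, 0.631 and 0.0293 FPKM in the control base. The MCAGF8 libraries were above all 6 control libraries, and base library 2 was again far above the other controls. Tyrp1, whose product acts later in eumelanin synthesis, was at 1.90, 1.02 and 0.601 FPKM in the MCAGF8 vault and at 0.0723, 0.0714 and 0.0566 FPKM in the control vault. In the base it was listed at 0 in library 1 and was at 1.18 and 1.58 FPKM in libraries 2 and 3. Tyrp1 was thus the enzyme gene for which base library 3 also reached the MCAGF8 range, and in the MCAGF8 vault it varied most of the 3, with an SD of 0.661 on a mean of 1.17 FPKM (n = 3).

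**Figure D1:**
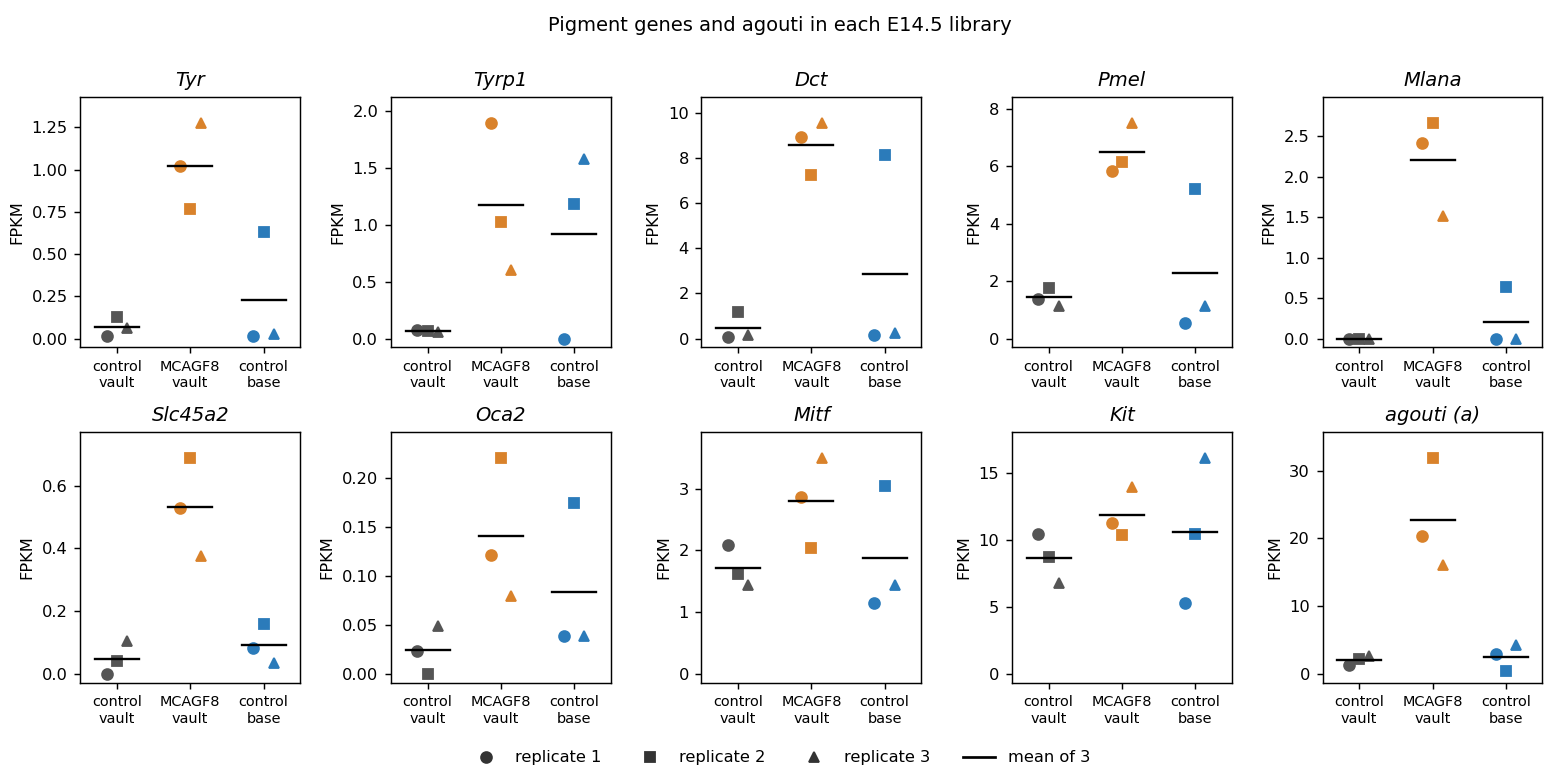
FPKM of each of the 10 genes in each of the 9 libraries, with 1 panel per gene and its own vertical axis in FPKM, 1 point per library and the group mean as a bar. The MCAGF8 vault points lie above all control vault points in 8 panels, overlap them for Mitf and Kit, and base library 2 is the highest base point for most pigment genes and the lowest for agouti.

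The genes of the melanosome itself were also higher in the MCAGF8 vault. Pmel, whose product forms the fibrils on which melanin is laid down, was at 5.84, 6.16 and 7.52 FPKM in the MCAGF8 vault and at 1.39, 1.76 and 1.15 FPKM in the control vault, a ratio of means of 4.53. In the control base Pmel was at 0.537, 5.22 and 1.13 FPKM, and its highest base value still lay below the lowest MCAGF8 value. Unlike the enzyme genes, Pmel was above 1 FPKM in every control vault library. Its gene model overlaps that of Cdk2 on the opposite strand by 837 bases, and Cdk2 was at 68.2 to 87.8 FPKM in all 9 libraries. Libraries were made with a stranded kit, but whether strand was used in counting is not stated, so reads from the shared bases cannot be told apart.

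Mlana encodes a small melanosome protein that is a standard marker of the lineage. It was listed at 0 in all 3 control vault libraries and was at 2.41, 2.67 and 1.52 FPKM in the MCAGF8 vault. In the base it was at 0.636 FPKM in library 2 and listed at 0 in libraries 1 and 3, so no ratio is given. Mlana was the only one of the 10 genes listed at 0 in every library of a group.

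The transporter genes were the lowest of the set. Slc45a2 and Oca2 encode membrane proteins that help to set the pH of the melanosome. Slc45a2 was at 0.528, 0.688 and 0.377 FPKM in the MCAGF8 vault, at 0, 0.0416 and 0.104 FPKM in the control vault and at 0.0817, 0.161 and 0.0346 FPKM in the base. Oca2 was at 0.122, 0.220 and 0.0795 FPKM in the MCAGF8 vault, at 0.0233, 0 and 0.0493 FPKM in the control vault and at 0.0393, 0.175 and 0.0385 FPKM in the base. Both were above the control vault without overlap, and Slc45a2 also cleared the base, while base library 2 lay within the MCAGF8 range of Oca2.

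The regulators Mitf and Kit overlapped between the vault groups. Mitf was at 2.86, 2.04 and 3.49 FPKM in the MCAGF8 vault and at 2.08, 1.62 and 1.43 FPKM in the control vault, with the lowest MCAGF8 value just under the highest control value. The ratio of means was 1.64, and the base held 1.14, 3.04 and 1.43 FPKM. Kit, the receptor that melanoblasts need to survive and migrate, was at 11.3, 10.4 and 13.9 FPKM in the MCAGF8 vault and at 10.4, 8.76 and 6.78 FPKM in the control vault, a ratio of means of 1.37. In the base it was at 5.27, 10.4 and 16.1 FPKM and spanned the range of both vault groups. Mitf and Kit are the genes of the set that other cells also use, mast cells and blood progenitors among them, and they were the only pigment cell genes above 1 FPKM in every library.

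Agouti was higher in the MCAGF8 vault by a wide margin. Its level was 20.3, 31.9 and 16.0 FPKM in the MCAGF8 vault, 1.33, 2.16 and 2.65 FPKM in the control vault, and 2.90, 0.435 and 4.22 FPKM in the control base. The mean was 22.7 ± 8.20 FPKM in the MCAGF8 vault and 2.05 ± 0.668 FPKM in the control vault (SD, n = 3 each). The lowest MCAGF8 library was 6.05 times the highest control vault library, and the ratio of means was 11.1 against the control vault and 9.03 against the base. Base library 2, the highest base library for Dct, Tyr, Pmel, Mlana, Slc45a2, Oca2 and Mitf, was the lowest of all 9 libraries for agouti, at 0.122 of the mean of the other base libraries, where Dct was at 38.0 times and Tyr at 27.0 times that mean. Within the MCAGF8 vault, library 2 was the highest for agouti, Mlana, Slc45a2 and Oca2, the lowest for Dct, Tyr, Mitf and Kit, and between the others for Tyrp1 and Pmel.

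Agouti lies on chromosome 2 at 154791402 to 155051012 on the plus strand (GRCm38, GENCODE M21; the build of the deposited values is not stated). Of its 6 annotated transcripts, 1 starts inside the neighboring gene Raly, which is read in the same direction, and the gene Eif2s2 lies within the agouti model on the opposite strand. Gm14226, on the same strand, overlaps the agouti model by 8839 bases and was at 0 to 0.870 FPKM in the 9 libraries. Ahcy is the next gene on the far side. None of Raly, Eif2s2 and Ahcy was called in any comparison. Raly, an RNA-binding protein gene, was at 231 to 373 FPKM in the MCAGF8 vault and at 254 to 367 FPKM in the control vault, with a difference of -0.06 on the log2(FPKM + 1) scale (SE 0.29, limma with Benjamini-Hochberg adjustment, adjusted p = 0.992). Eif2s2, a translation initiation factor, differed by -0.13 (SE 0.30, adjusted p = 0.984), and Ahcy, an enzyme of methionine metabolism, by 0.16 (SE 0.28, adjusted p = 0.978). How reads from the shared stretch of 75860 bases were assigned is not stated.

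**Figure D2:**
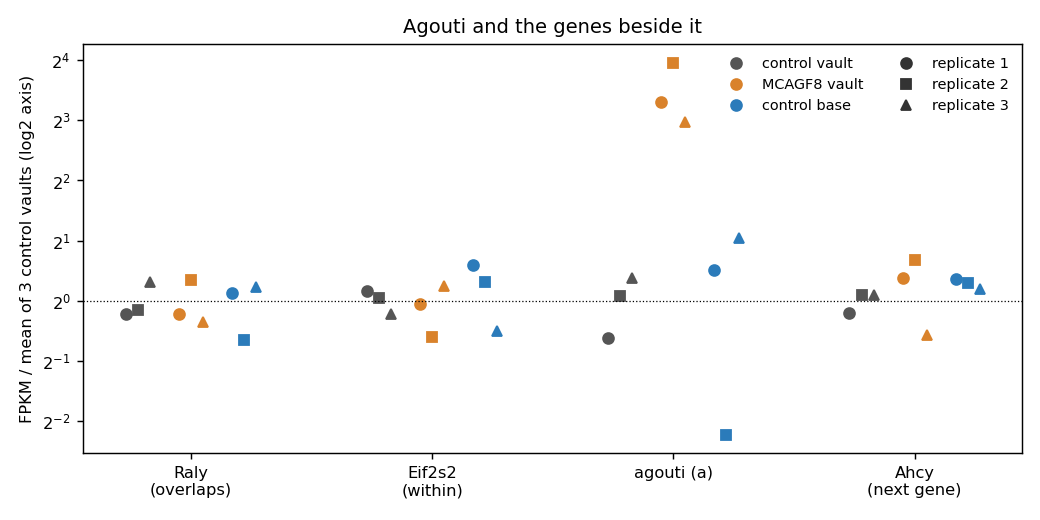
Agouti and its neighbors Raly, Eif2s2 and Ahcy in the 9 libraries, as FPKM divided by the mean of the 3 control vault libraries on a log2 axis, 1 point per library, colors for the groups and shapes for the library numbers. Agouti, in FPKM, is at 16.0 to 31.9 FPKM in the MCAGF8 vault and at 0.435 to 4.22 FPKM in all control libraries. For each neighbor, the MCAGF8 vault points overlap those of the control vault and those of the base. Between the control tissues, all base points of Ahcy lie above its control vault points, and the points of Raly and Eif2s2 overlap.

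The differences were also put on a log scale, log2(FPKM + 1), which understates changes of genes below about 1 FPKM. Against the control vault the difference was 2.93 for agouti, 2.78 for Dct, 1.66 for Mlana, 1.63 for Pmel, 0.98 for Tyrp1, 0.91 for Tyr, 0.54 for Slc45a2, 0.47 for Mitf, 0.42 for Kit and 0.15 for Oca2. With 0.01 in place of 1 the order changed, to 7.75 for Mlana, whose control values are all 0 so that its value is set by the added constant, 5.16 for Dct, 3.95 for Tyr, 3.80 for Tyrp1, 3.76 for Slc45a2, 3.47 for agouti, 2.37 for Oca2 and 2.19 for Pmel. Over the whole table, genes were called by limma at an unadjusted p under 0.05 and an adjusted p under 0.1, among 18714 genes with a mean of at least 0.5 FPKM. Of the 10 genes, 7 passed that filter. Tyr, Slc45a2 and Oca2 did not, and Mlana and Tyrp1 passed only through their MCAGF8 values. Mlana and agouti were the 2 called, both higher, where 0.604% of all tested genes were called and 0.230% were called higher. Without control vault library 1 or 3 or MCAGF8 library 1 or 2, 0 were called, without MCAGF8 library 3, 1 was called, and without control base library 2, 4 were called. Over all tested genes 113 were called with every library and 11 to 15 without 1 of the first 4 libraries named. It was 38 without MCAGF8 library 3 and 273 without control base library 2. Without overlap of the libraries, 8 of the 10 were higher and 0 lower. Of the 7 tested, 5 were higher in that way, where 9.90% of all tested genes were. The genes had been picked on these libraries, so nothing is read from the counts of calls among them, in this or in the other comparisons.

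Against the control base the differences were smaller for most pigment genes and almost equal for agouti. On the log2(FPKM + 1) scale agouti differed by 2.89, Dct by 2.00, Pmel by 1.45, Mlana by 1.42, Tyr by 0.75, Slc45a2 by 0.48, Mitf by 0.44, Tyrp1 and Kit by 0.25 and Oca2 by 0.07. Without base library 2 the difference was 2.97 for Dct, 2.05 for Pmel, 1.66 for Mlana, 0.98 for Tyr and 0.71 for Mitf, and fell to 2.34 for agouti. Tyrp1 and Kit turned to -0.17 and -0.13 without base library 1. Mlana and agouti were again called, where 8.39% of tested genes were, and 5 were called without base library 2. Over all tested genes 1571 were called with every library and 4561 without base library 2. The genes above the base without overlap were Tyr, Pmel, Mlana, Slc45a2 and agouti, 5 of 10. Of the 7 tested, 3 were, where 8.91% of tested genes were higher in that way.

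Between the control base and the control vault, limma called 0 of the 7, where 3.06% of tested genes were called. By the unadjusted threshold alone it also called 0, where 2396 of all 18714 tested genes were called. The base minus vault difference on the log2(FPKM + 1) scale was 0.78 for Dct, 0.74 for Tyrp1, 0.24 for Mlana and 0.04 for agouti. Without base library 2 it was -0.19 for Dct, 0.59 for Tyrp1, 0.00 for Mlana and 0.59 for agouti, and without base library 1, 1 gene was called, Tyrp1. Over all tested genes 573 were called with every library and 918 without base library 1.

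**Figure D3:**
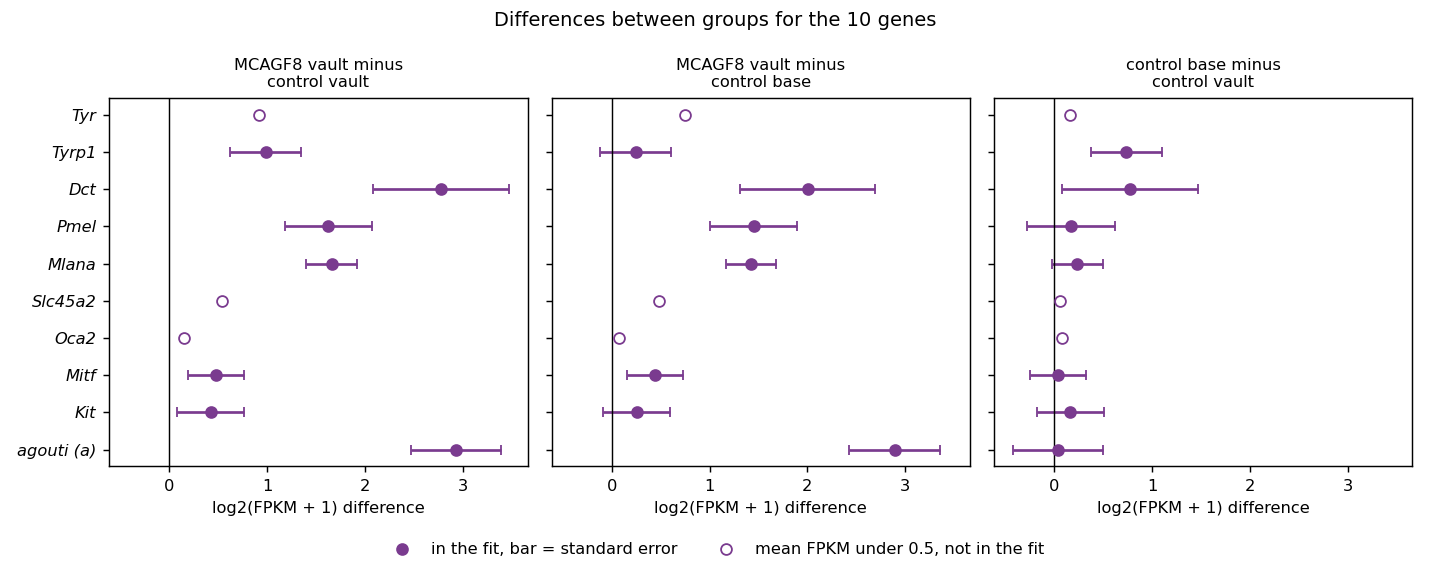
Differences of the 10 genes on the log2(FPKM + 1) scale in the 3 comparisons, as filled points with the limma standard error as a bar, or as open points without one for the 3 genes below the filter. Agouti, at 2.93 against the control vault and 2.89 against the base, and Dct, at 2.78 and 2.00, lie farthest to the right in both MCAGF8 comparisons, and agouti stays near 0 between the control tissues.

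Other genes of pigment cells were taken from 3 lists that leave out the 10 genes: 20 lineage and signal genes, 32 genes of melanosome biogenesis and transport and 15 of the melanocortin and agouti axis. Together they are 66 genes, of which 65 had a row and 60 were tested. Mc1r, the receptor that agouti blocks, had no row and is not analysed here. Against the control vault 1 of the 60 was called higher and 0 lower, where 0.604% of all tested genes were called. The median difference was 0.08 on the log2(FPKM + 1) scale, beside -0.01 over all tested genes.

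That gene was Tfap2a, a transcription factor of the neural crest, of melanocytes and of surface ectoderm. It was at 7.74, 5.28 and 5.87 FPKM in the MCAGF8 vault and at 1.42, 0.528 and 0.973 FPKM in the control vault, with no overlap. The difference was 1.90 (SE 0.33, limma, adjusted p = 0.0723), and the call was lost without any 1 of the 6 vault libraries, with an adjusted p of up to 0.334. Over all tested genes 113 were called with every library and 11 to 113 without 1 vault library. In the base Tfap2a was at 1.48, 1.54 and 4.20 FPKM. The lineage genes that act early in melanoblasts were not called in the vault. Sox10, which acts upstream of Mitf, was at 1.89, 3.05 and 3.65 FPKM in the MCAGF8 vault and at 9.13, 3.67 and 7.51 FPKM in the control vault, so every MCAGF8 library lay below every control one, with a difference of -0.96 (SE 0.49, limma, adjusted p = 0.884). Ednrb, the endothelin receptor of melanoblasts, was at 8.50 to 10.1 FPKM against 11.6 to 15.6 FPKM, a difference of -0.55 (SE 0.22, adjusted p = 0.674). Pax3, an activator of Mitf, differed by 0.56 (SE 0.40, adjusted p = 0.969). The ligands of Ednrb and Kit are Edn3 and Kitl, and they differed by 0.45 (SE 0.25, adjusted p = 0.937) and -0.13 (SE 0.48, adjusted p = 0.990).

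Of the melanosome list 0 of 30 tested genes were called in the vault, with a median difference of 0.03. Of the 32 genes, 8 lay above the control vault without overlap and 1 below, 6 and 1 of them among those tested, where 9.90% of all tested genes lay above. The 8 were Slc24a5, Trpm1, Gpr143, Tspan10, Gpnmb, Rab27a, Rab38 and Hps4, and Cd63 was the 1 below. Slc24a5, a melanosomal ion exchanger, was at 1.82, 2.16 and 1.83 FPKM in the MCAGF8 vault and at 0.533, 0.617 and 0.192 FPKM in the control vault, a difference of 1.03 (SE 0.25, limma, adjusted p = 0.187). Trpm1, a cation channel of melanocytes and retina, was at 2.09, 1.22 and 1.10 FPKM against 0.0550, 0.117 and 0.0924 FPKM, a difference of 1.16 (SE 0.43, limma, adjusted p = 0.571), and base library 2 held the highest value of all, 3.02 FPKM. Gpr143, a receptor on the melanosome, was at 0.426, 0.708 and 0.537 FPKM against 0, 0.208 and 0.158 FPKM and was too low to be tested. The rest of the list, such as the genes of the HPS and BLOC complexes that sort proteins to melanosomes, are used by lysosomes of other cells too.

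Against the control base 12 of the 60 were called, 5 higher and 7 lower, where 8.39% of all tested genes were called. Those higher were Tfap2a, Snai2, Rab32, Gpnmb and Slc24a5, of which Gpnmb and Slc24a5 passed the filter through their MCAGF8 values, with a mean under 0.5 FPKM over the 6 control libraries. The call of Tfap2a was lost without any 1 vault library or base library 1, with an adjusted p of up to 0.278 (limma). Those of Rab32 and Gpnmb were lost without MCAGF8 library 1 or 2, with up to 0.113 and 0.166, and that of Snai2 without MCAGF8 library 1, with 0.111. Slc24a5 differed by 0.96 on the log2(FPKM + 1) scale (SE 0.25, limma, adjusted p = 0.0568), and the call was lost without any 1 MCAGF8 library or without base library 1 or 3, with an adjusted p of up to 0.170. The lower genes were Sox10, Foxd3, Erbb3, Ednrb, Pomc, Pcsk1 and Pcsk2, of which Pcsk1 passed the filter only through its base values. The call of Pomc was lost without any 1 vault library or base library 1, with an adjusted p of up to 0.215 (limma). Sox10 was at 13.1, 48.3 and 44.2 FPKM in the base, a difference of -3.06 (SE 0.49, limma, adjusted p = 0.0107). Foxd3, a crest factor that holds Mitf down, differed by -2.22 (SE 0.30, adjusted p = 0.00662), Erbb3, a receptor of Schwann cell precursors, by -2.13 (SE 0.37, adjusted p = 0.0127) and Ednrb by -1.48 (SE 0.22, adjusted p = 0.00822). These 4 fell in every alternative and without any 1 library. Sox10, Foxd3 and Erbb3 are glial genes as well as genes of the pigment lineage.

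On the melanocortin list 0 of 12 tested genes were called in the vault, with a median difference of 0.19. Agrp, a relative of agouti that also blocks melanocortin receptors, differed by 0.36 (SE 0.26, limma, adjusted p = 0.969), and Atrn, the receptor that agouti needs in addition to MC1R, differed by 0.31 (SE 0.32, adjusted p = 0.969). Against the base, Pcsk2 and Pcsk1, the proteases that process POMC, were lower by -1.70 (SE 0.49, limma, adjusted p = 0.0862) and -1.21 (SE 0.35, adjusted p = 0.0847). Pcsk1 passed the filter only through its base values, with means of 1.73 FPKM in the base, 0.0601 FPKM in the MCAGF8 vault and 0.0782 FPKM in the control vault. Both calls were lost without any 1 of the 6 vault libraries, that of Pcsk2 also without base library 3, with adjusted p up to 0.243 for Pcsk1 and 0.232 for Pcsk2. Between the control tissues 2 of the 60 were called, where 3.06% of all tested genes were, Sox10 at 2.09 (SE 0.49, limma, adjusted p = 0.0758) and Ednrb at 0.94 (SE 0.22, adjusted p = 0.0758), both higher in the base. Both calls were lost without any 1 vault library or base library 3, with adjusted p up to 0.226 for Sox10 and 0.297 for Ednrb.

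**Figure D4:**
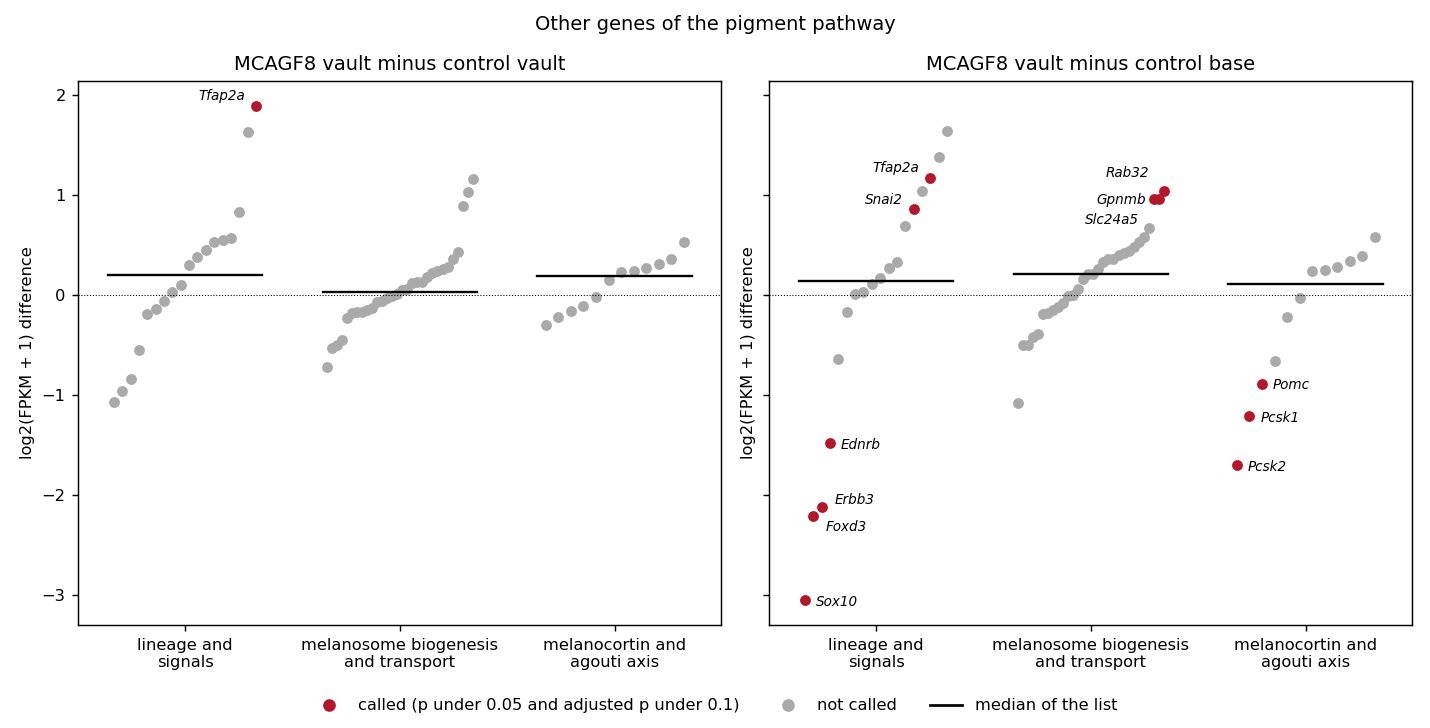
Differences of the tested genes of the 3 pigment lists on the log2(FPKM + 1) scale, for the MCAGF8 vault against the control vault (left) and against the control base (right), with called genes in red and named and the list median as a line. The left panel has 1 called gene, Tfap2a, and the right panel has 5 above and 7 below 0, with Sox10 at the bottom.

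Markers of other cells moved between the groups beside the pigment genes. The FPKM of Tyr, Tyrp1, Dct, Pmel and Mlana summed to 20.1, 17.9 and 20.5 in the MCAGF8 vault, 1.54, 3.14 and 1.43 in the control vault and 0.738, 15.8 and 2.98 in the base. Of 16 skin epidermis markers, 15 were higher and 1 lower in the MCAGF8 than in the control vault. None was at 0 in all libraries of a group, and 3 were called higher, where 0.230% of all tested genes were. Against the base 0 were called higher and 1 lower, where 8.39% of all tested genes were called. The FPKM of the 16 markers summed to 475 to 1135 in the MCAGF8 vault, 37.6 to 129.5 in the control vault and 145 to 931 in the base. Krt5, a keratin of basal epidermis, was at 139 to 252 FPKM in the MCAGF8 vault and at 1.63 to 29.2 FPKM in the control vault. The part of these markers in the pigment gene result was not tested. In the control vault, library 2 had both the highest epidermal sum, at 129.5 against 62.6 and 37.6, and the highest pigment sum. In the base, library 2, which had the highest pigment sum, had the lowest epidermal sum, at 145, and in the MCAGF8 vault library 3, with an epidermal sum of 1135 against 500.1 and 475, had a pigment sum like the others.

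The 12 markers of dermis and hair follicle, the tissue in which agouti is made, summed to 1117 to 1789.8 FPKM in the MCAGF8 vault, 801 to 1151 FPKM in the control vault and 406 to 987 FPKM in the base, and 0 of 11 tested were called in the vault. Of those tested, 6 were higher and 5 lower in the MCAGF8 than in the control vault. MCAGF8 library 2 had the highest and base library 2 the lowest dermal sum, as for agouti. Crabp1 alone was at 638 to 1184 FPKM in the MCAGF8 vault. Among the MCAGF8 libraries, Crabp1, Crabp2, Twist2, Sox18 and Foxd1 were highest in library 2, and the other markers were not. The part of dermis was not tested. Markers of Schwann cells and glial crest, cells that can give rise to melanocytes, were lower in the MCAGF8 than in the control vault in 9 of 10 genes with 0 called, and their sums were 54.8 to 85.5 FPKM against 84.8 to 178 FPKM. Of these sums, Fabp7 alone was at 105, 11.2 and 55.4 FPKM in the control vault and at 5.55 to 7.25 FPKM in the MCAGF8 vault. In the base the 10 markers summed to 230.03 to 462 FPKM. Against it all 10 were lower in the MCAGF8 vault, and 8 were called, where 8.39% of tested genes were.

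Eye and mast cells also use some of these genes. Of 10 markers of the retinal pigment epithelium and eye, 3 were tested and 0 called in the vault. Their FPKM summed to 11.5 to 17.7 in the MCAGF8 vault, 17.5 to 20.1 in the control vault and 24.8 to 38.6 in the base. All 3 tested were lower in the MCAGF8 than in the control vault. Rpe65, an enzyme of the pigment epithelium, was listed at 0 in all libraries but MCAGF8 library 3, at 0.0416 FPKM. Rax was listed at 0 in all 3 MCAGF8 libraries, while Lrat had a mean of 0.153 FPKM there and 0.0324 FPKM in the control vault. Base library 2, with the highest pigment sum of the base, had the highest eye sum of all 9 libraries, at 38.6. The part of eye tissue was not tested. Mast cell markers summed to 42.4 to 222 FPKM in the MCAGF8 vault, 52.1 to 106 FPKM in the control vault and 34.3 to 40.3 FPKM in the base, with 0 of 8 tested called in the vault. MCAGF8 library 3 had the highest mast cell sum and the highest Mitf of all 9 libraries and the highest Kit of the vault libraries, and the part of mast cells in those values was not tested.

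Markers of meninges, where melanocytes also settle, summed to 503 to 1071 FPKM in the MCAGF8 vault, 569 to 655 FPKM in the control vault and 220.01 to 662 FPKM in the base, with 0 of 8 called in the vault. Of 7 neuron markers 0 were called in the vault, with sums of 47.8 to 81.9 FPKM against 26.2 to 71.8 FPKM, and all 7 were lower than in the base, which summed to 388 to 1584 FPKM. All 8 skeletal muscle markers were lower in the MCAGF8 than in the control vault, and 6 were called, where 0.604% of tested genes were. They summed to 853 to 5473 FPKM in the control vault and 16.7 to 177 FPKM in the MCAGF8 vault. The base sums were 1628 to 10949 FPKM. In the base, library 1 had the highest muscle sum and library 2 the highest pigment sum.

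**Figure D5:**
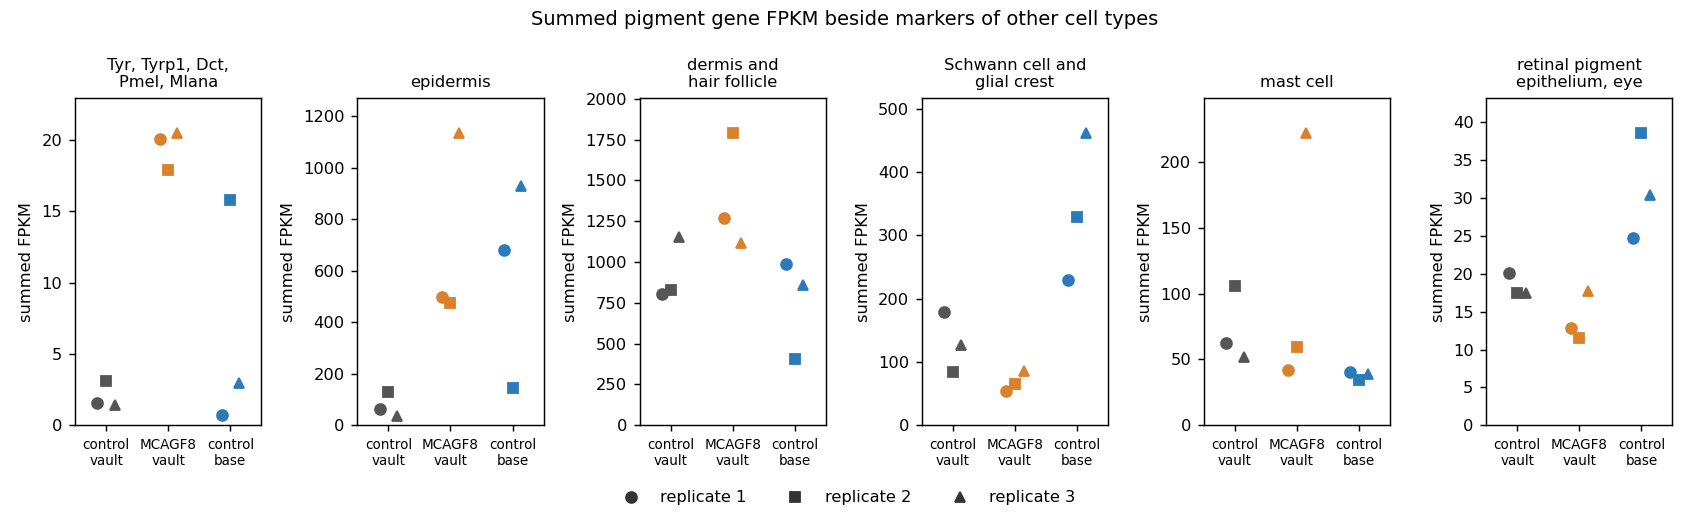
Summed FPKM of the pigment genes and of 5 marker lists in each library, 1 panel per list with its own linear axis from 0, 1 point per library, colors for the groups and shapes for the library numbers. The pigment sum is 17.9 to 20.5 in the MCAGF8 vault and 15.8 in base library 2, the epidermal sum is high in the MCAGF8 vault and in base libraries 1 and 3, and the Schwann and glial sum is highest in the base.

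The genes whose levels followed the pigment genes most closely over the 9 libraries were not the same as those closest to agouti. By Pearson's r on log2(FPKM + 1) with the mean standardized level of Tyr, Tyrp1, Dct, Pmel and Mlana, among 17056 genes with a mean of at least 1 FPKM, the nearest were Pou3f3, Wnt3 and Lef1 (r = 0.973 each), Irx1 (0.971) and Lonrf1 (0.953). Lef1, a transcription factor of the Wnt pathway, was at 18.5, 22.2 and 17.1 FPKM in the MCAGF8 vault, 5.49, 5.31 and 5.73 FPKM in the control vault and 3.08, 15.3 and 5.91 FPKM in the base. Like the pigment genes, it was high in base library 2. Among the 10 genes, r with that mean was 0.871 for Slc45a2, 0.824 for Mitf, 0.789 for Oca2, 0.676 for agouti and 0.526 for Kit.

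The nearest to agouti were Nkd2 (r = 0.979), Apcdd1 (0.978), Gm2115 (0.977), Wnt6 (0.976) and Lrrc32 (0.973). Apcdd1, an inhibitor of Wnt signaling, was at 92.6, 84.7 and 84.4 FPKM in the MCAGF8 vault, 23.1, 24.7 and 25.3 FPKM in the control vault and 31.9, 15.0 and 42.8 FPKM in the base, with base library 2 the lowest of all, as for agouti. Of the pigment genes, r with agouti ran from 0.303 for Mitf to 0.881 for Slc45a2. These r describe 9 libraries of 3 groups that differ in tissue and in genotype, and a gene that is high in the MCAGF8 vault and low in the controls has a high r by that alone.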

How the data were processed

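RNAseq of 9 libraries (3 groups of 3) was analysed from 1 table of FPKM per Ensembl gene, which the authors deposited. They read stranded mRNA libraries as single ends of 151 bases, mapped them with gSNAP, derived FPKM with Cufflinks and tested by ANOVA in R. Versions, genome build and annotation were not given in sources used here.

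From the deposited FPKM, 63 rows that repeated an identifier were added together, and 9 genes with a placeholder of 999999999 were left out. FPKM were not rescaled. The 18714 genes with a mean of at least 0.5 FPKM were fitted on log2(FPKM + 1) with limma 3.58.1 in R 4.3.3 (trend, 1 mean per group over all 9 libraries, two-sided, Benjamini-Hochberg adjustment), and the procedure was tested on simulated data. A gene was called at p under 0.05 and adjusted p under 0.1. Symbols came from a name table that matched 42384 of 43548 identifiers. Tables were handled with Python 3.11.15 and pandas 2.3.3, and plots drawn with matplotlib 3.10.9.

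The 10 genes, the pigment lists and the marker lists were chosen with earlier results of these data known, and calls among the 10 genes are counted as a description, with no p given. Named beside them are 9 fixed pigment cell genes, the called genes of the lists (up to the 6 largest per comparison with their differences), the genes around agouti, and the 5 genes most like the pigment genes and the 5 most like agouti. Tspan10, Rab27a, Rab38, Hps4, Cd63, Agrp, Atrn and Gm14226 were named after their values were seen. Libraries were not paired by number in the main fit. Deviations from the group means correlated at r = -0.55 to 0.37 between same-numbered libraries and at -0.48 to 0.56 between differently numbered ones. These correlations cannot show whether pools shared embryos. Depth is unknown, so the SD of 3 pools describes the precision.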

Additional observations from a re-analysis of the deposited data

How the results depend on the processing

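No difference of the 10 genes against the control vault changed sign in 160 recomputed values (other pseudocounts, filters, scalings, fits, or without 1 library), and 2 did against the base, both without 1 base library. Between the control tissues 18 of 160 did. Another filter or fit leaves a difference of group means as it is, so those values could not change. For a gene whose groups do not overlap, the sign cannot change without 1 library or with another pseudocount either. No stability is therefore read from these signs. The counts of called genes changed with the processing, and those over all tested genes changed too. Over all tested genes 113 were called against the control vault, 1571 against the base and 573 between control tissues. With only the compared groups fitted it was 174, 875 and 108, and by unadjusted p 1186, 3675 and 2396. At an adjusted p under 0.05 it was 35, 941 and 255. Without 1 library it was 11 to 273, 587 to 4561 and 130 to 1335. Of the 10 genes against the control vault (2 called), 2 were called with no filter but as Mlana and Slc45a2, so agouti was not among them, 1 was called with a pseudocount of 0.01, 1 with a minimum mean of 1 FPKM, 4 with only the compared groups fitted, 5 by unadjusted p alone, 1 at an adjusted p under 0.05, and 0 to 4 without 1 library. Against the base (2 called) 4 were called with no filter, 3 after quantile normalization or rescaling to a common median, with Pmel added, 1 with a minimum mean of 1 FPKM, 4 by unadjusted p, and 2 to 5 without 1 library. Between control tissues (0 called) it was 0 to 1 without 1 library. Of the other pigment lists against the control vault (1 called), 2 were called with a pseudocount of 0.01, 0 with no filter, 5 with only the compared groups fitted, 9 by unadjusted p, 0 at an adjusted p under 0.05, and 0 to 4 without 1 library. Against the base (12 called) it was 6 with only the compared groups fitted, 7 at an adjusted p under 0.05, and 4 (without MCAGF8 library 1) to 21 (without base library 2). Between control tissues (2 called) it was 4 with a pseudocount of 0.1, 1 after rescaling to a common sum, 0 with only the compared groups fitted, 11 by unadjusted p, 0 at an adjusted p under 0.05, and 0 to 8 without 1 library. The cause of these changes was not tested.

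With the replicate number as a block, 0 of the 10 genes and 0 of the other lists were called against the control vault, 2 and 8 against the base, and 0 and 0 between control tissues. Over all tested genes it was 19, 918 and 234. In the vault comparison 2 of 6 libraries correlated best with their own number, 0 of 6 against the base and 1 of 6 between the control tissues. Rescaling to a common sum moved the median difference of all genes against the control vault from -0.01 to 0.13. Over all genes the calls against the base split into 558 higher and 1013 lower, and into 1153 and 838 after quantile normalization, and those between control tissues into 347 and 226, and into 235 and 387. Depth is unknown, so levels below about 0.1 FPKM, as for Oca2 and Tyr in controls, have no counting error here.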
